A study of Mus musculus with 28 samples.

Results

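The 37 genes of the mouse mitochondrial genome were followed through 28 libraries of mouse skin RNA. They were chosen by name, as every gene whose name starts with mt- in both deposited count tables, and they are 37 of the 51976 genes that the tables share by Ensembl identifier. The set holds 13 protein-coding genes, 2 rRNA genes and 22 tRNA genes, and all 37 are listed at the same positions of the MT sequence in both tables.

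The study asked how UVB changes skin that lacks VISTA, the immune checkpoint protein made by the Vsir gene. In the whole-body experiment the groups were Vsir-/- knockout skin after UV (KO UV), unexposed Vsir-/- skin (KO NoUV), wild-type skin after UV (WT UV) and unexposed wild-type skin (WT NoUV), with 3 libraries each. In the keratinocyte experiment the groups were K14creVsirfl/fl skin after UV (cKO UV), the same genotype unexposed (cKO NoUV), Vsirfl/fl skin without Cre after UV (FL UV) and the same unexposed (FL NoUV), with 4 libraries each. These libraries, too, are of skin and not of sorted keratinocytes. The K14 promoter drives Cre in keratinocytes, so other skin cells of cKO mice keep Vsir, and the floxed alleles are carried by cKO and FL mice alike. All mice were females of 12 weeks, shaved and treated with a depilatory 5 days before exposure. UV was a single UVB dose of 500 mJ/cm2, and the sources differ on the time of harvest, with 3 h in the sample titles and 1 day in the treatment protocol. Controls were littermates and the replicates are called biological by the design text. The sampled tissue is labelled skin, while the series title names epidermis.

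The mitochondrial genome is a small circle that is transcribed from both strands into long precursors. The tRNAs lie between most of the other genes, and their excision releases the mRNAs and the rRNAs. The mRNAs encode core subunits of respiratory complexes I, III and IV and of the ATP synthase, complex V. mt-Rnr1 and mt-Rnr2 encode the RNAs of the small and the large subunit of the mitochondrial ribosome, and the 22 tRNAs read the codons of the 13 mRNAs. Everything else that mitochondria need, the remaining respiratory subunits and the mitochondrial RNA polymerase included, is encoded in the nucleus.

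These sequences belong to genes described below, for some of which the placement of counts is uncertain, and all are from the GRCm38 assembly. The first pair is the start of mt-Nd3, a complex I subunit gene (MT:9459-9518, plus strand), and the same stretch of Gm28438 on chromosome 1 (chr1:24613060-24613119, minus strand), with the base that differs in capitals.
mt-Nd3: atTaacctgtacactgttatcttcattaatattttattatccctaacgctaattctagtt
Gm28438: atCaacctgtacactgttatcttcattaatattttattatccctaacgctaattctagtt
The difference is T3C, counted from 1 at the first base of mt-Nd3, and it was the only substitution in the 345 bases compared. The next stretch belongs to mt-Atp8 and mt-Atp6 at once (MT:7927-7969, plus strand, all bases shared).
mt-Atp8 and mt-Atp6: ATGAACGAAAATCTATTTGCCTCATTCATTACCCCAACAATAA
The tRNA for glutamine, mt-Tq, lies on the minus strand (MT:3772-3842), and its last 3 bases, in capitals, are shared with mt-Ti on the other strand.
mt-Tq: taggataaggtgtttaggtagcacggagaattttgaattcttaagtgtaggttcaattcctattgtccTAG

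Libraries held 30.5 to 43.8 M counts in the whole-body experiment and 7.12 to 31.1 M in the keratinocyte experiment, where FL NoUV 1 and cKO UV 3 had fewer than 10 M. Vsir was lower in KO than in WT skin, with 81 to 276 counts per KO library and 681 to 2091 per WT library (log2 fold change -2.89, adjusted p = 0.00033 after UV, edgeR's quasi-likelihood test). In cKO against FL skin Vsir did not pass the test (+0.41 without UV and -0.07 after UV). Hoxc10, whose level marks body position, had 137 to 265 counts in KO UV and 161 to 272 in WT UV. It had 1 to 2 counts in KO NoUV and 0 to 1 in WT NoUV (log2 fold change +8.03, adjusted p = 7.6e-08, edgeR). In cKO skin it had 0 to 2 counts after UV and 2 to 115 without (-5.79, adjusted p = 0.016, edgeR). In FL skin it had 0 to 128 after UV and 4 to 146 without (-0.53, adjusted p = 0.78, edgeR). Averaged over both genotypes of the keratinocyte experiment the value was -3.16 (adjusted p = 0.013, edgeR). A difference in body site cannot be told apart from UV in the whole-body experiment, nor fully in cKO skin, and was not tested. Markers of skeletal muscle were abundant in every library (15 genes, summed CPM 13128 to 86495), and skeletal muscle lies below the epidermis. Levels are given as CPM, counts scaled to library size with TMM normalisation. In whole skin, fewer cells of a type and less RNA per cell cannot be told apart.

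The mitochondrial genome supplied between 3.58% and 12.6% of all counts. The share was 7.69%, 7.60% and 10.5% in KO UV, 6.996%, 7.65% and 6.95% in KO NoUV, 6.86%, 4.11% and 7.58% in WT UV, and 3.58%, 5.27% and 5.23% in WT NoUV. Each of the 3 KO libraries lay above each of the 3 WT libraries of the same treatment, although the nearest KO UV and WT UV libraries, at 7.60% and 7.58%, were close. Without UV the mean was 7.20% ± 0.393 in KO skin and 4.69% ± 0.962 in WT skin (SD, n = 3 each), a log2 ratio of 0.62. After UV the means were 8.61% ± 1.66 in KO skin and 6.18% ± 1.83 in WT skin (SD, n = 3 each), a log2 ratio of 0.48. With the counts of Gm42418, a nuclear locus that overlaps an rRNA repeat, left out of the totals, the shares were 8.67% to 10.7% in KO UV and 4.75% to 8.35% in WT UV, and 7.60% to 7.91% in KO NoUV and 3.86% to 6.13% in WT NoUV, again without overlap. UV against no UV gave overlapping shares in both genotypes (log2 ratio 0.26 in KO, 0.40 in WT).

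The keratinocyte groups overlapped throughout. The share was 10.3%, 8.19%, 6.46% and 10.3% in cKO UV (mean 8.80% ± 1.84, SD, n = 4), against 6.20%, 8.87%, 7.44% and 8.07% in cKO NoUV (7.64% ± 1.13, SD, n = 4). It was 7.19%, 12.6%, 7.21% and 5.55% in FL UV (8.13% ± 3.06, SD, n = 4), against 10.2%, 7.49%, 7.33% and 6.91% in FL NoUV (7.98% ± 1.49, SD, n = 4). The log2 ratio of UV to no UV was 0.20 in cKO skin and 0.03 in FL skin. One library, FL UV 2, set the sign of the FL value, which was -0.26 without it. Counting error was small beside these spreads, since the widest 95% Wilson interval of a share spanned 0.0444 percentage points.

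**Figure D1:**
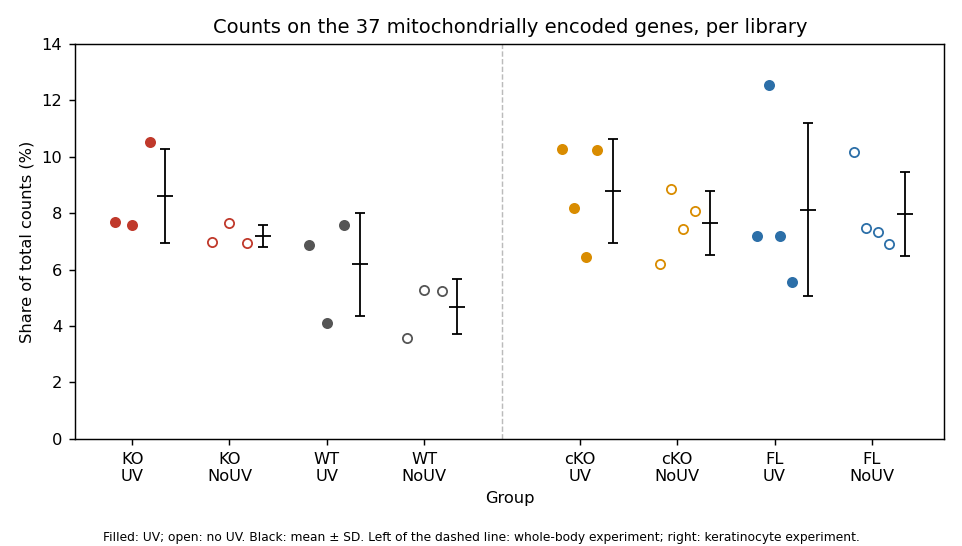
Share of all counts that fell on the 37 mitochondrially encoded genes, in percent, for each of the 28 libraries (points) by group, with the group mean and SD. All KO libraries lie above the WT libraries of the same treatment, with 7.60% and 7.58% the closest pair after UV, and the cKO and FL groups overlap.

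Marker lists of other cell types were read beside the share, with values in CPM summed over each list. The 15 skeletal muscle genes summed to 22663 to 41595 CPM in KO UV and 21667 to 31511 CPM in WT UV, and to 26818 to 32088 CPM in KO NoUV and 13366 to 21288 CPM in WT NoUV. The 7 suprabasal keratinocyte genes summed to 9689 to 15714 CPM in KO UV and 16918 to 24715 CPM in WT UV, and to 12424 to 16286 CPM in KO NoUV and 21835 to 26382 CPM in WT NoUV. The 7 basal keratinocyte genes summed to 4339 to 5514 CPM in KO UV and 6050 to 10916 CPM in WT UV, and to 4970 to 5568 CPM in KO NoUV and 5277 to 12794 CPM in WT NoUV. Sums thus did not overlap between KO and WT in either treatment for the suprabasal list, after UV only for the basal list and without UV only for the muscle list.

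The brown adipocyte list, of 6 genes, summed to 182 to 415 CPM in KO UV and 496 to 593 CPM in WT UV, and to 226 to 382 CPM in KO NoUV and 390 to 505 CPM in WT NoUV, without overlap in either treatment. The 7 fibroblast genes summed to 11761 to 15245 CPM in KO UV and 6962 to 9545 CPM in WT UV, without overlap, and did overlap without UV. Endothelial sums were 272 to 280 CPM in KO NoUV and 217 to 258 in WT NoUV. Dendritic and Langerhans sums were 378 to 431 CPM in KO NoUV and 298 to 336 in WT NoUV. Both lists overlapped after UV. Schwann sums were 171 to 204 CPM in KO UV and 131 to 144 in WT UV, and overlapped without UV. The remaining cell type lists overlapped in both treatments. Within one treatment 0 of 15 muscle and 0 of 7 suprabasal genes passed between KO and WT. Among all genes only 0.00982% were called without UV and 0.0442% after UV, so these zeros say little. Over both treatments 3 of 15 muscle genes and 1 of 7 fibroblast genes were higher in KO, while 4 of 7 suprabasal, 1 of 7 basal and 1 of 5 brown adipocyte genes tested were lower, against 7.45% of all genes called in that comparison. Over the 12 libraries, Pearson's r of a list's mean log2 CPM with the summed mRNA members was -0.89 for the basal, -0.74 for the suprabasal, -0.09 for the brown adipocyte, 0.60 for the fibroblast and 0.44 for the muscle list, as a description of libraries that share scaling. Over the 16 keratinocyte libraries r was 0.18 for the basal, 0.005 for the suprabasal and 0.63 for the brown adipocyte list. There it was 0.09 for the fibroblast and 0.65 for the muscle list. No member of these 5 lists was at 0 in all libraries. The part of tissue composition in the mitochondrial share was not tested.

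Within the mitochondrial genome, 6 mRNAs held nearly all counts. mt-Nd1, mt-Nd2, mt-Nd4 and mt-Nd5 (complex I), mt-Co1 (complex IV) and mt-Cytb (cytochrome b, complex III) together took 84.1% to 94.2% of mitochondrial counts in whole-body libraries and 98.9% to 99.6% in keratinocyte libraries. Per kilobase of gene, mt-Co1 was highest in both experiments, at a mean of 12452 CPM per kb in the whole-body and 16481 in the keratinocyte libraries. It was followed in the whole-body libraries by mt-Cytb (10361 CPM per kb), mt-Nd1 (9308), mt-Nd2 (6835), mt-Nd5 (4035) and mt-Nd4 (3981), of which the last pair were close together. In the keratinocyte libraries the order was mt-Nd1 (15507 CPM per kb), mt-Cytb (8896), mt-Nd5 (8856), mt-Nd2 (7840) and mt-Nd4 (5147), with mt-Cytb and mt-Nd5 nearly equal. The 2 tables were made separately, so levels are not tested across them.

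Another 6 mRNAs of the same strand had far lower levels. mt-Co2, mt-Co3 (complex IV), mt-Atp6, mt-Atp8 (ATP synthase), mt-Nd3 and mt-Nd4l (complex I) together made 0.0583% to 0.117% of mitochondrial counts in the whole-body and 0.0171% to 0.0840% in the keratinocyte libraries. Per kilobase they averaged 24.8 CPM (mt-Atp6), 19.1 (mt-Atp8), 18.7 (mt-Co2), 14.5 (mt-Co3), 13.7 (mt-Nd4l) and 8.02 (mt-Nd3) in the whole-body libraries. In the keratinocyte libraries the same genes spanned 5.12 CPM per kb (mt-Nd4l) to 17.3 (mt-Atp8). A single gene of the 6 had between 11 and 1084 counts in a whole-body library, whereas a single gene of the abundant 6 had between 108788 and 1149362.

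Of these 6 genes, 5 have an annotated nuclear copy of nearly their whole length. A stretch of chromosome 1 (chr1 positions 24611535 to 24616197, minus strand, 4663 bases) carries annotated pseudogenes that match them in the same order. Gm28661 matches 681 of the 684 bases of mt-Co2 at 100% identity, and Gm10925 matches 678 of the 681 bases of mt-Atp6 at 100%. Gm28437 matches 783 of the 784 bases of mt-Co3 at 100%, Gm28438 matches 345 of the 348 bases of mt-Nd3 at 99.7%, and Gm10222 matches 294 of the 297 bases of mt-Nd4l at 100%. The copied stretch also covers the last 483 of 1545 bases of mt-Co1 (Gm29216, 99.8%) and the first 876 of 1378 bases of mt-Nd4 (Gm28439, 100%). Of mt-Atp8 only the 43 bases it shares with mt-Atp6, printed above, lie in a listed copy. The search covered annotated transcripts only, so bases between the listed copies were not searched. Positions on MT and on chromosome 1 add to the same value, 24622578, for mt-Co2 and mt-Atp6, which lie on either side of mt-Atp8. The tRNA genes mt-Td, mt-Tk, mt-Tg and mt-Tr also lie between members with listed copies.

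The copies were counted as well. mt-Co2 had 6.87 to 18.5 CPM in the whole-body libraries, and Gm28661 had 7.11 to 16.7 CPM in 11 of the 12 and 395 CPM in WT UV 3. Similar single-library values occurred for Gm10925 (233 CPM in KO NoUV 2) and Gm28437 (38.1 CPM in WT NoUV 1) and, among the genes themselves, for mt-Nd4l in WT UV 1. How reads with several alignments were counted is not given in the sources used here, so a count for mt-Co2, mt-Co3, mt-Atp6, mt-Nd3, mt-Nd4l or their copies is uncertain. The same would hold for mt-Atp8 and the tRNAs between the listed copies, if the copied stretch covers them.

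**Figure D2:**
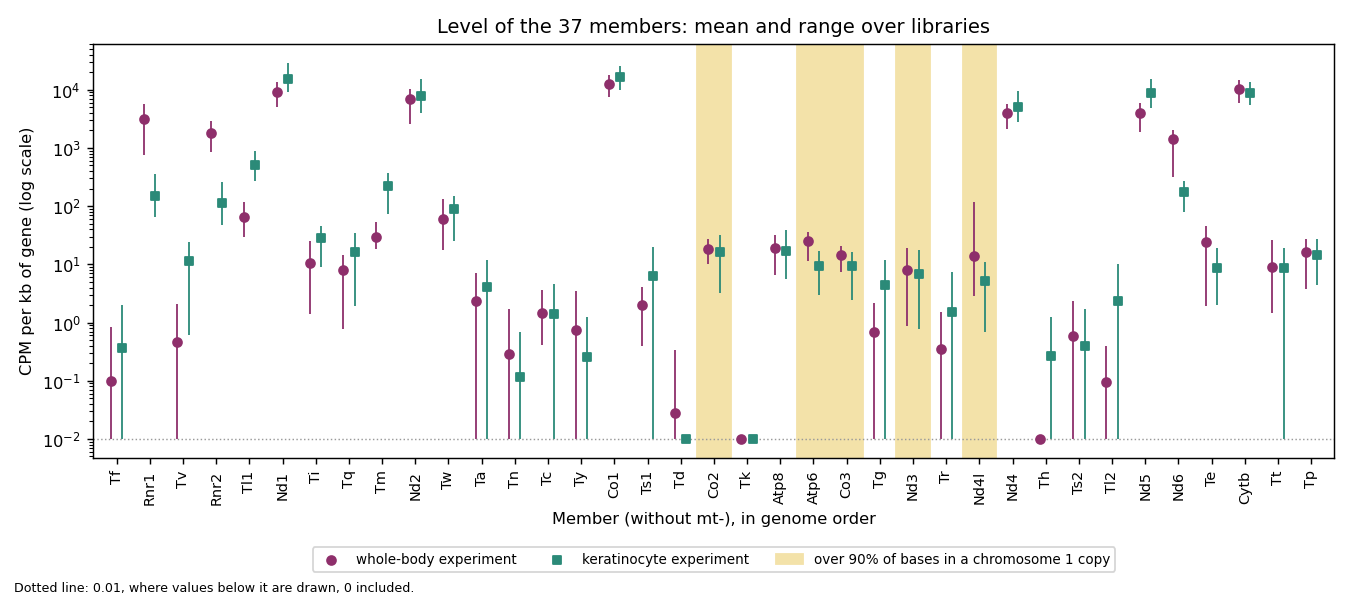
Level of each of the 37 members in CPM per kb of gene on a log axis, in genome order, with the mean over libraries (points) and the lowest to highest library (lines) for each experiment, and values under 0.01 drawn at 0.01. The shaded genes, with over 90% of their bases in an annotated chromosome 1 copy, and the unshaded mt-Atp8 average at most 24.8 CPM per kb, while the abundant 6 mRNAs average at least 3981.

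mt-Nd6, the one mRNA read from the other strand, encodes a complex I subunit and stood between these classes. It had 5958 to 37395 counts per whole-body library and 292 to 3406 per keratinocyte library. As a share of mitochondrial protein-coding counts it made 1.03% to 1.49% in 10 of the 12 whole-body libraries, with 0.566% in WT NoUV 1 and 0.459% in WT UV 2. In the keratinocyte libraries it made 0.0992% to 0.149% in 14 of 16, with 0.0405% in FL NoUV 1 and 0.0474% in FL UV 2. The strand setting of the counting is not given, and without it reads of mt-Nd6 and of transcripts opposite to it cannot be told apart.

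Both rRNAs were higher after UV in whole-body skin. mt-Rnr1, the small-subunit rRNA, had 4916, 5159 and 5356 CPM in KO UV, against 1322, 863 and 1584 CPM in KO NoUV. In WT skin it had 3571, 3874 and 5398 CPM in WT UV, against 712, 1241 and 1465 CPM in WT NoUV. Every UV library lay above every unexposed one. The log2 fold change was +2.03 in KO skin (SE 0.28, adjusted p = 0.00051) and +1.91 in WT skin (SE 0.28, adjusted p = 0.00094, both edgeR's quasi-likelihood test, 3 libraries a group). mt-Rnr2, the large-subunit rRNA, also rose, likewise without overlap within a genotype.

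For mt-Rnr2 the values were 3934, 4620 and 4382 CPM in KO UV, against 2247, 2339 and 2271 CPM in KO NoUV (+0.92, SE 0.19, adjusted p = 0.0043 by edgeR). In WT skin they were 3007, 2676 and 4105 CPM in WT UV, against 1355, 1915 and 1617 CPM in WT NoUV (+1.00, SE 0.19, adjusted p = 0.0034 by edgeR). The proportion between the 2 rRNAs shifted as well. The ratio of mt-Rnr1 to mt-Rnr2 was 1.12 to 1.45 in the 6 UV libraries, against 0.369 to 0.906 in the 6 unexposed ones. The UV responses of KO and WT skin differed by +0.12 for mt-Rnr1 (SE 0.39) and by -0.09 for mt-Rnr2 (SE 0.27), and neither difference passed the test (adjusted p = 0.9999 for both, edgeR).

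Libraries were depleted of rRNA with a kit whose probes, as background, target the cytoplasmic and mitochondrial rRNAs, so these counts are what depletion left. The rRNAs made 4.64% to 15.5% of mitochondrial counts in the whole-body libraries and 0.241% to 0.791% in the keratinocyte libraries. Other RNAs were read beside them in the whole-body libraries. Gm42418, the same nuclear locus, took 11.3%, 12.95% and 2.07% of counts in KO UV and 11.6%, 1.02% and 8.54% in KO NoUV, and 10.9%, 13.5% and 9.17% in WT UV and 7.21%, 14.1% and 13.4% in WT NoUV. It did not pass the test for UV (log2 fold change +0.17, adjusted p = 0.82, edgeR). Malat1, a nuclear-retained RNA, rose with UV by +1.56 in KO (adjusted p = 0.0011) and by +1.30 in WT skin (adjusted p = 0.0037, edgeR). The part of depletion efficiency in the rRNA change was not tested. Without the libraries KO UV 3 and KO NoUV 2, where Gm42418 was low, mt-Rnr2 had a log2 fold change of +0.92 in KO skin and did not pass (adjusted p = 0.058, edgeR).

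**Figure D3:**
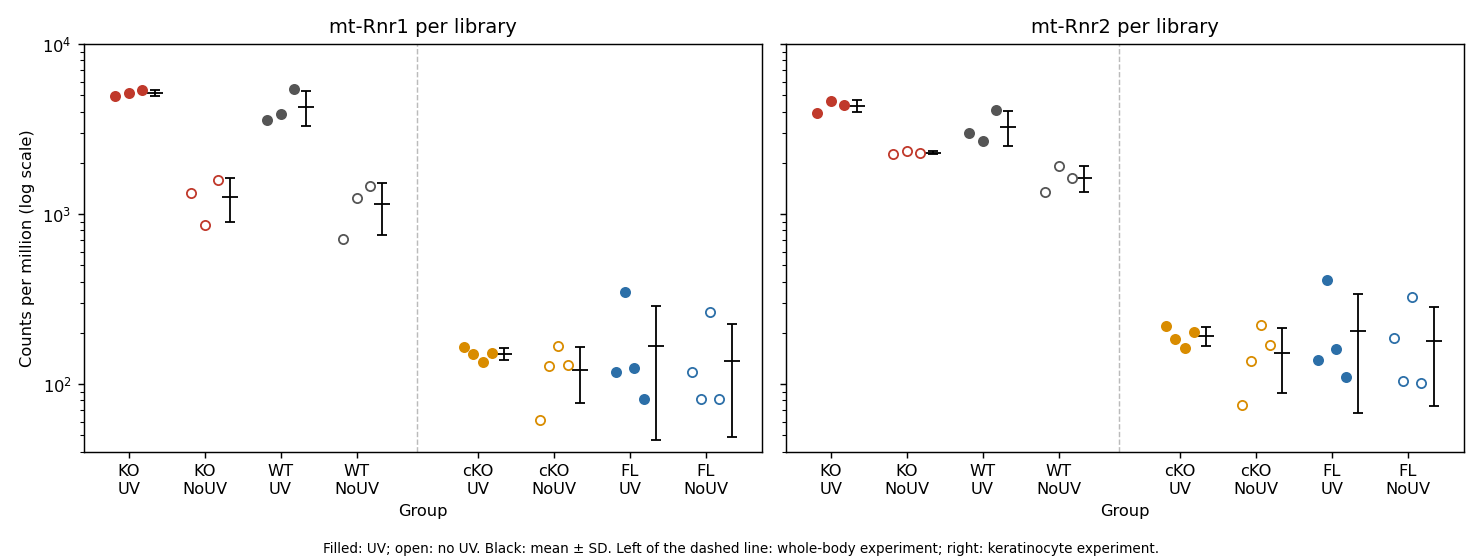
Levels of mt-Rnr1 and mt-Rnr2 in CPM on a log axis for each of the 28 libraries by group, with the group mean and SD in black. In the whole-body experiment every UV library lies above every unexposed library of its genotype for both rRNAs, while in the keratinocyte experiment UV and unexposed groups overlap.

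Neither rRNA passed the test for UV in the keratinocyte experiment. mt-Rnr1 had 166, 150, 134 and 151 CPM in cKO UV, against 61.7, 127, 166 and 129 CPM in cKO NoUV. In FL skin it had 117, 346, 125 and 81.6 CPM in FL UV, against 117, 81.5, 265 and 81.2 CPM in FL NoUV. Averaged over genotypes the log2 fold change was +0.30 (SE 0.32, adjusted p = 0.52) for mt-Rnr1 and +0.27 (SE 0.31, adjusted p = 0.57) for mt-Rnr2, by edgeR with 4 libraries a group. The ratio of the rRNAs was 0.629 to 0.929 over all 16 libraries. In one model over all 8 groups, the mt-Rnr1 response to UV was smaller in the keratinocyte than in the whole-body experiment by 1.66 on the log2 scale (difference -1.66, SE 0.42, adjusted p = 0.014, edgeR). This was 1 of the 28 members tested there to pass, against 9.09% of all 21851 genes. Without KO UV 3 and KO NoUV 2 the difference was -1.54 (adjusted p = 0.056). For mt-Rnr2 it was -0.69 (SE 0.39, adjusted p = 0.30). The experiments differ in genotype, batch label and count table. Hoxc10, the mark of body position, also differed in its UV response between them (-11.1, adjusted p = 6.7e-06, edgeR). These differences cannot be told apart here.

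Of the 37 members, 23 had enough counts to be tested in the whole-body experiment and 26 in the keratinocyte experiment. In KO skin 2 of the 23 passed for UV, against 22.4% of all genes tested, and both were rRNAs. In WT skin 4 passed, against 18.7% of all genes. These were the 2 rRNAs, mt-Tq and mt-Nd4l. Averaged over both genotypes 3 passed, against 37.3% of all genes. The members were thus called no more often than genes at large.

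None of the 13 mRNAs passed for UV in KO skin, and mt-Nd4l alone did in WT skin. Estimates lay above 0 for 13 of 13 in KO skin (0.08 to 0.41, median 0.25) and for 12 of 13 in WT skin (median 0.27), beside a median over all genes of 0.02 in KO and -0.01 in WT skin. These counts were the same with DESeq2, upper-quartile scaling or scaling from nuclear genes, although upper-quartile scaling placed the median of all genes at 0.15 in KO and 0.13 in WT skin. mt-Co1, the catalytic core of cytochrome c oxidase, had 23709, 22219 and 28066 CPM in KO UV, against 19891, 19445 and 18551 CPM in KO NoUV. It had 20509, 13920 and 22628 CPM in WT UV, against 11660, 15295 and 14969 CPM in WT NoUV. WT UV 2 fell among the unexposed WT libraries, and the average over genotypes just missed the threshold (+0.40, SE 0.15, adjusted p = 0.052, edgeR). The call of mt-Nd4l rested on WT UV 1, which had 35.0 CPM, against 0.91 and 1.02 CPM in the other WT UV libraries and 0.84, 1.17 and 1.28 CPM in WT NoUV. Its log2 fold change was +3.49 (SE 1.08, adjusted p = 0.040, edgeR) with that library and -0.19 without it.

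**Figure D4:**
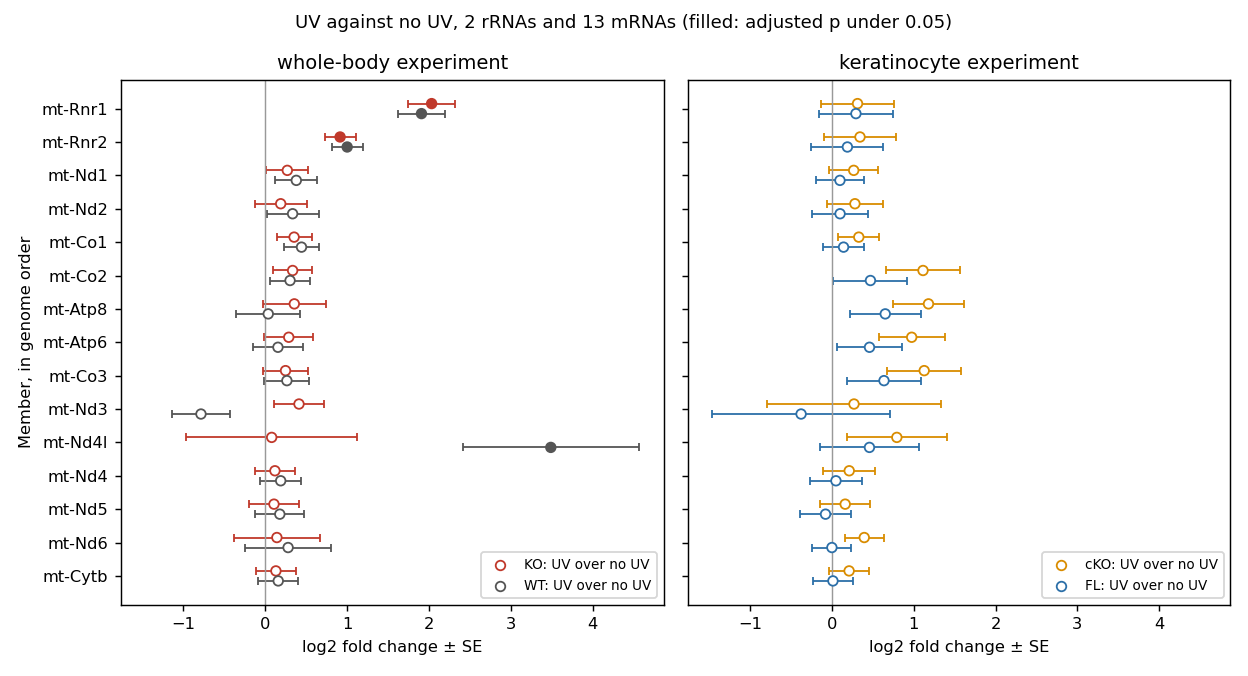
Log2 fold change of UV over no UV, with its SE, for the 2 rRNA and 13 mRNA members in KO and WT skin and in cKO and FL skin, with filled points at an adjusted p under 0.05. mt-Rnr1 lies near +2 and mt-Rnr2 near +1 in KO and WT skin, and mt-Nd4l in WT skin, at +3.49, rests on 1 library.

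In the keratinocyte experiment 0 of the 26 members passed for UV in cKO skin, against 9.72% of all genes, and 0 in FL skin, against 7.62%. At an unadjusted p under 0.05 there were 5 members in cKO (25.4% of all genes) and 1 in FL skin (22.9%), and DESeq2 called 2 in cKO (15.2% of all genes) and 0 in FL skin (12.4%). With the replicate number as a block 1 of 26 passed in cKO skin (12.9% of all genes), the methionine tRNA mt-Tm (+1.07, adjusted p = 0.047, edgeR), and a blocked fit of the cKO libraries only called 3, against 20.0% of all genes. Averaged over genotypes 1 of 26 passed, against 24.3% of all genes, while DESeq2 called 6 (29.3% of all genes). The member called by edgeR was mt-Atp8, an ATP synthase subunit, with 7.04, 2.84, 2.88 and 4.96 CPM in cKO UV, against 1.33, 1.81, 3.01 and 1.72 CPM in cKO NoUV. In FL skin it had 2.90, 8.08, 3.93 and 4.05 CPM in FL UV, against 2.69, 1.15, 3.24 and 4.79 CPM in FL NoUV. The groups overlapped, and the average log2 fold change was +0.92 (SE 0.31, adjusted p = 0.039, edgeR). mt-Co3 (+0.88, adjusted p = 0.055), mt-Co2 (+0.79, adjusted p = 0.084) and mt-Atp6 (+0.72, adjusted p = 0.078) had estimates of like size that did not pass. Estimates lay above 0 for 13 of 13 mRNAs in cKO skin (0.16 to 1.18, median 0.33) and for 11 of 13 in FL skin (median 0.10), beside a median of 0.01 over all genes in each.

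The mt-Atp8 call was not stable. Skeletal muscle genes were read in the same libraries. Averaged over genotypes 11 of 15 rose with UV, against 24.3% of all genes called, with 2 of 15 passing in cKO skin (9.72% of all genes) and 0 of 15 in FL skin (7.62%). The list summed to 27633 to 86495 CPM in cKO UV and 13128 to 48104 in cKO NoUV, and to 19284 to 52543 in FL UV and 14813 to 24788 in FL NoUV, and the sums of UV and unexposed libraries overlapped in both genotypes. With a muscle score, the standardised mean log2 CPM of these genes, as a covariate the mt-Atp8 value was +0.49 (adjusted p = 0.44, edgeR). Leaving out any one of 10 libraries also ended the call, namely cKO UV 1 and 4, cKO NoUV 1, 2 and 4, FL UV 2 and 4, and FL NoUV 1, 2 and 3 (adjusted p at most 0.088).

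The abundant mRNAs and 4 of the low ones varied together in the whole-body libraries and less so in the keratinocyte libraries. Across the 12 whole-body libraries, Pearson's r of log2 CPM between one of the abundant 6 and one of mt-Co2, mt-Atp8, mt-Atp6 and mt-Co3 had a median of 0.95. Across the 16 keratinocyte libraries the median was 0.32, with 0.94 within the abundant 6 and 0.95 within the other 4. These values share libraries and scaling between the genes, and are descriptions without a test.

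The tRNAs had few counts. They made 0.0148% to 0.0358% of mitochondrial counts in the whole-body and 0.0559% to 0.147% in the keratinocyte libraries. Only 7 of the 22 had counts in every library (mt-Tl1, mt-Ti, mt-Tq, mt-Tm, mt-Tw, mt-Te and mt-Tp). mt-Tk, for lysine, had 0 counts in all 28, where a count of 0 allows up to 0.0684 to 0.0985 CPM per whole-body library and 0.0963 to 0.422 CPM per keratinocyte library. mt-Tl1, a leucine tRNA, was the highest, at a mean of 4.97 CPM in the whole-body and 38.6 CPM in the keratinocyte libraries. These limits cover counting error only. They do not cover read placement, which is uncertain for mt-Tk, mt-Td, mt-Tg and mt-Tr, since these lie between members with listed chromosome 1 copies.

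mt-Tq, the glutamine tRNA shown above, fell with UV in whole-body skin. It had 0.311, 0.487 and 0.293 CPM in KO UV, against 0.742, 0.848 and 0.811 CPM in KO NoUV. In WT skin it had 0.258, 0.0551 and 0.370 CPM in WT UV, against 0.573, 0.915 and 1.05 CPM in WT NoUV. All 6 UV libraries were below all 6 unexposed ones. These levels rest on few counts, with 9, 14 and 12 in KO UV and 8, 2 and 13 in WT UV. Unexposed libraries had 26 to 36 counts. The log2 fold change averaged over genotypes was -1.51 (SE 0.34, adjusted p = 0.0038), with -1.87 in WT skin (SE 0.50, adjusted p = 0.020) and -1.14 in KO skin (SE 0.47, adjusted p = 0.10), all by edgeR. The WT value did not pass without WT NoUV 3 (-1.67, adjusted p = 0.064), with the muscle score as a covariate (-1.86, adjusted p = 0.062) or in a fit of the WT libraries only (-1.86, adjusted p = 0.099). In a fit of the KO libraries only, with the replicate number as a block, the KO value passed (-1.16, adjusted p = 0.033, edgeR). In the keratinocyte experiment the average was -0.85 (SE 0.42, adjusted p = 0.16, edgeR). Whether these counts came from tRNA or from its precursor was not tested.

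Between KO and WT skin, mt-Nd3 was the member that stood out. In unexposed skin 0 of 23 members passed, against 0.00982% of all genes, with 6 at an unadjusted p under 0.05 (15.8% of all genes) and 1 of 22 called by DESeq2 (3.25% of all genes). After UV 1 of 23 passed, against 0.0442% of all genes, and it was mt-Nd3. Averaged over treatments 2 of 23 passed, against 7.45% of all genes, namely mt-Nd3 and mt-Nd2, while DESeq2 called 9 of 22, against 19.5% of all genes.

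mt-Nd3 had 141, 139 and 269 counts in KO UV, against 25, 11 and 25 in WT UV. Without UV it had 140, 145 and 172 counts in KO NoUV, against 34, 39 and 39 in WT NoUV. All 6 KO libraries lay above all 6 WT libraries. The log2 fold change was +3.16 after UV (SE 0.35, adjusted p = 0.0055), +1.97 without UV (SE 0.33, adjusted p = 0.079) and +2.56 over both (SE 0.24, adjusted p = 0.00052), all by edgeR. Without KO UV 3 and KO NoUV 2 the value after UV was +3.00 and did not pass (adjusted p = 0.11, edgeR). The value without UV passed when WT UV 2 was left out of the fit (adjusted p = 0.021) or with no filter on low counts (adjusted p = 0.0016).

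Its copy on chromosome 1 went the other way. Gm28438 had 41, 39 and 55 counts in KO UV, against 151, 119 and 245 in WT UV. Without UV it had 50, 70 and 36 counts in KO NoUV, against 111, 120 and 161 in WT NoUV. Again no KO library overlapped a WT library, and the log2 fold change over both treatments was -1.65 (SE 0.23, adjusted p = 0.0049, edgeR). Within one treatment it did not pass (-1.88 after UV, adjusted p = 0.057, and -1.43 without UV, adjusted p = 0.13, edgeR). Of the sum of both genes, mt-Nd3 held 67.4% to 83.0% in the 6 KO libraries and 8.46% to 24.5% in the 6 WT libraries. The lowest 95% Wilson bound was 60.9% in KO libraries and the highest was 31.8% in WT libraries.

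The same split fell inside every group of the keratinocyte experiment. mt-Nd3 had 152, 85, 2 and 8 counts in cKO UV and 88, 113, 15 and 8 in cKO NoUV. It had 63, 10, 104 and 15 counts in FL UV and 39, 7, 136 and 21 in FL NoUV. Gm28438 was high where mt-Nd3 was low, with 11, 7, 44 and 79 counts in cKO UV, 3, 14, 118 and 98 in cKO NoUV, 2, 123, 6 and 59 in FL UV and 9, 102, 8 and 179 in FL NoUV. The share of mt-Nd3 in the sum of both was 81.3% to 96.9% in 8 libraries and 4.35% to 20.3% in the other 8, with 2 of 4 libraries on each side in each of the 4 groups. No library lay between. These sides follow neither UV nor the Cre allele, and no test is given for groups made from the values. The labels name no mitochondrial haplotype, and the reads that would show the base at position 3 were not used here.

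**Figure D5:**
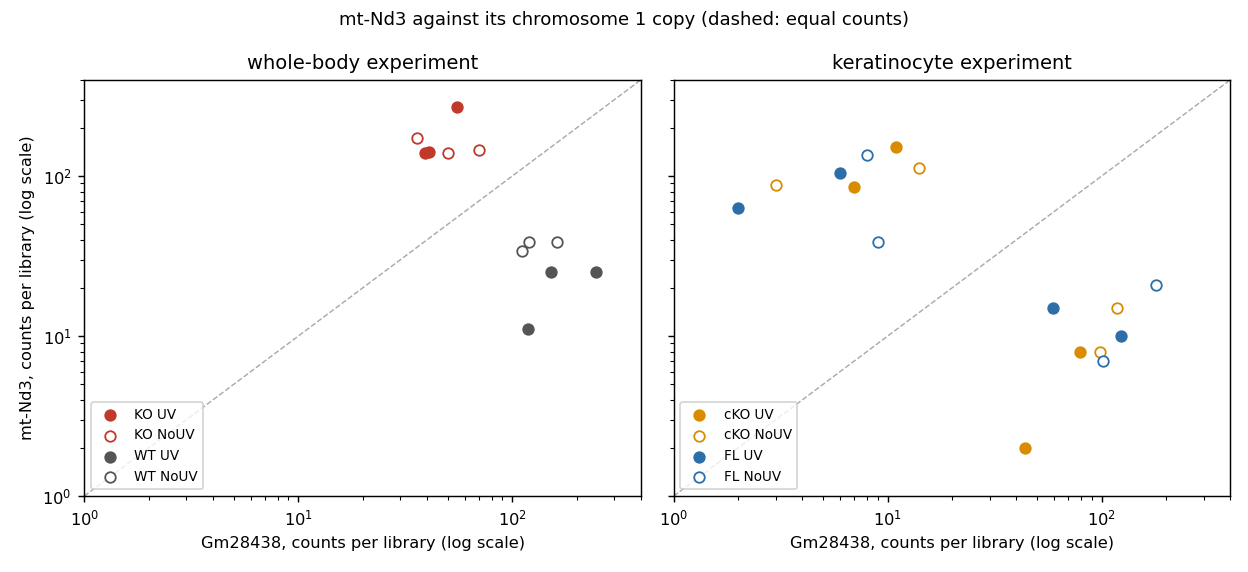
Counts of mt-Nd3 (vertical) against counts of Gm28438 (horizontal), 1 point per library on log axes, with a dashed line at equal counts. All 6 KO libraries lie above the line and all 6 WT libraries below it, while each cKO and FL group has 2 libraries on either side.

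The tRNA genes on either side of mt-Nd3 had few counts. The glycine tRNA mt-Tg, just before it, had 6 counts summed over the KO UV libraries and 14 over KO NoUV, against 0 in each of the 6 WT libraries. The arginine tRNA mt-Tr, just after it, had 7 counts over KO UV and 2 over KO NoUV, against 0 in each of the 6 WT libraries. Neither had enough counts to be tested in the whole-body experiment. Both lie between members with listed chromosome 1 copies, so their counts may share the uncertain read placement of mt-Nd3.

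mt-Nd2, a complex I subunit, was higher in KO skin over both treatments (+0.83, SE 0.23, adjusted p = 0.045, edgeR). It had 8821, 9307 and 10840 CPM in KO UV, against 7270, 2999 and 6909 CPM in WT UV. Without UV it had 8372, 8718 and 8294 CPM in KO NoUV, against 2701, 5710 and 5201 CPM in WT NoUV. No KO library overlapped a WT library. Leaving out WT NoUV 1, WT UV 2 or any of the 6 KO libraries ended the call (adjusted p 0.061 to 0.10), as did the muscle score as a covariate (+0.88, adjusted p = 0.25) and the absence of a filter on low counts (+0.82, adjusted p = 0.063). The other abundant mRNAs did not pass, with mt-Co1 at +0.42 (SE 0.15, adjusted p = 0.090, edgeR).

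Estimates for KO against WT lay above 0 for 13 of 13 mRNAs without UV (median 0.52) and for 12 of 13 after UV (median 0.52), beside medians over all genes of -0.01 and 0.03. The rRNAs did not pass over both treatments, with +0.20 for mt-Rnr1 (adjusted p = 0.50) and +0.45 for mt-Rnr2 (adjusted p = 0.056, edgeR).

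Between cKO and FL skin no member passed in either treatment or over both, against 0% of all genes in each case, and 0 members reached an unadjusted p under 0.05. DESeq2 called 0 members as well. mt-Co1 differed by +0.09 over both treatments (SE 0.18) and mt-Rnr1 by -0.16 (SE 0.32). The UV response of cKO minus that of FL skin also gave 0 members passing, against 0% of all genes, and the same difference between KO and WT skin gave 0, against 0%, with 2 members at an unadjusted p under 0.05 in the whole-body (1.54% of all genes) and 0 in the keratinocyte difference (1.26%). DESeq2 called 0 members in both differences.

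Nuclear genes that build and serve the same machinery were read as lists beside the members. Their counts with UV stand beside 37.3% of all genes called in whole-body and 24.3% in keratinocyte skin, in either direction. Of 78 nuclear respiratory-chain and ATP synthase genes tested, 17 rose and 0 fell with UV in whole-body skin (median +0.25, all genes +0.01). In the keratinocyte experiment 9 rose and 0 fell (median +0.20, all genes +0.01). Both counts are a smaller share of the list than was called among all genes. Examples in whole-body skin were Cox6c (+0.43, adjusted p = 0.0022) and Cox7a1 (+0.55, adjusted p = 0.015) of complex IV and Atp5mg (+0.42, adjusted p = 0.0059) of complex V, all by edgeR. Complex I genes rose in 7 of 37 cases in whole-body and 4 of 37 in keratinocyte libraries, complex II genes in 0 of 4 in both. KO against WT over both treatments gave 0 of the 78 in either direction, against 7.45% of all genes. The median was -0.08, where the mRNA members had a median of +0.50.

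Factors that copy and transcribe mitochondrial DNA had 3 of 15 rising and 2 falling with UV in whole-body skin, a share near that of all genes. Polg2, the accessory subunit of the mitochondrial DNA polymerase, rose (+0.83, adjusted p = 0.00045), and Twnk, the replicative helicase, fell (-0.43, adjusted p = 0.0091, edgeR). With UV in the keratinocyte experiment 3 of 15 rose and 0 fell, Polg2 again among them (+1.08, adjusted p = 0.00012, edgeR). Of 22 genes for mitochondrial RNA processing and turnover, 2 rose and 2 fell in whole-body skin, including Prorp, the nuclease of mitochondrial RNase P (-0.34, adjusted p = 0.031). Among the keratinocyte libraries 5 rose and 1 fell, led by Trmt10c, another RNase P subunit (+0.73, adjusted p = 0.00013, edgeR). Mitochondrial ribosomal protein genes split as 6 risen and 3 fallen of 77 in whole-body and 8 and 3 of 78 in keratinocyte libraries.

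Of 9 regulators of mitochondrial biogenesis, 4 fell and 0 rose with UV in whole-body skin, again near the 37.3% of all genes called. Those that fell were Ppargc1b, a transcriptional coactivator (-0.96, adjusted p = 0.0014), the transcription factors Nrf1 (-0.55, adjusted p = 0.0042) and Yy1 (-0.58, adjusted p = 0.00041), and the nuclear receptor Ppara (-0.88, adjusted p = 0.0087, edgeR). In the keratinocyte experiment 3 of 9 fell and 1 rose, the coactivator Pprc1 (+0.47, adjusted p = 0.040, edgeR). Of 10 stress-response genes, 5 rose and 1 fell in whole-body skin, beside the same 37.3%, with Atf4 (+0.97, adjusted p = 5.8e-05) and the secreted factor Gdf15 (+3.43, adjusted p = 0.0026, edgeR) among those that rose. Between KO and WT skin over both treatments, 1 gene of all these pathway lists passed, where 7.45% of all genes were called. It was the pseudokinase gene Trib3 (-1.15, adjusted p = 0.018, edgeR).

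The nuclear genes whose levels followed the summed mRNA members most closely were Vma21 (Pearson's r = 0.98), Brcc3 (0.98) and Dld (0.98) over the 12 whole-body libraries, out of 12632 genes compared. Over the 16 keratinocyte libraries, Ndufs1 (0.92), Mrpl42 (0.92) and Vdac1 (0.91) were among the closest of 12888. Ndufs1 encodes a complex I subunit, Mrpl42 a mitochondrial ribosomal protein, Vdac1 an outer-membrane channel and Dld a mitochondrial dehydrogenase subunit. These correlations are descriptions over libraries that share depth scaling.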

How the data were processed

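Skin RNA was depleted of rRNA with Ribo-Zero Gold and made into stranded TruSeq total RNA libraries, sequenced as 100-bp paired reads on an Illumina HiSeq, per the labels' protocols. The submitters' processing notes name cutadapt 4.6, HISAT2 2.1.0, featureCounts and the GRCm38 build. The deposited values are raw counts per gene and library, in 1 table per experiment. Strand and multi-mapping settings are not given in the sources used here. Gene starts match GENCODE M21 (GRCm38) for 99.8% of whole-body but 2.79% of keratinocyte genes, while all 37 members match in both. Multi-mapped reads, if dropped, would lower genes with a nuclear copy.

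The tables were joined by Ensembl identifier. Each experiment was fitted separately with edgeR 4.0.16 in R 4.3.3 (TMM scaling, filterByExpr, quasi-likelihood test, 1 coefficient per group), and a model over all 8 groups gave the difference between experiments. P-values were adjusted by Benjamini-Hochberg across every gene of a fit and called under 0.05, and recovery was tested on simulated data. Correlations used log2 of CPM + 0.5. Copies were found with BLAST+ 2.17.0 among annotated transcripts of GENCODE M21 only. The labels do not say what replicate numbers share. Deviations of same-numbered libraries from their group means correlated above 0.1 in every pair for KO UV with KO NoUV (0.18 to 0.24) and cKO UV with cKO NoUV (0.23 to 0.55), and not in every pair for any other groups. Shares have 95% Wilson intervals, and a count of 0 a limit of 3 counts. Intervals cover counting error only. No test was run on the mitochondrial share. The members, pathway lists and cell type lists were chosen with earlier results of these data known. All 13 mRNAs and 2 rRNAs, up to 6 tRNAs, up to 4 genes per pathway list by smallest p, Vsir, the closest nuclear genes by Pearson's r and the chromosome 1 copies were named by rule. Further tRNAs were named outside that rule, mt-Tg and mt-Tr among them for lying beside mt-Nd3. The KO against WT and cKO against FL averages over both treatments were added after the data were seen. Alternatives were other scalings, DESeq2 1.42.0, no filter, fits on the compared groups only, a replicate block, a skeletal muscle covariate and leaving out libraries. Sequences and positions come from GRCm38 (GENCODE M21).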

Additional observations from a re-analysis of the deposited data

Results flagged for a closer look

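In each of the 4 keratinocyte groups, 20 measures were examined for 1 library far from the other 3. Of these 80 combinations of measure and group, 8 were picked out. Chance gives about 1 in 20 for one combination, but the measures come from the same libraries and are not independent. FL UV 2 held a larger share of its counts on the mitochondrial rRNAs, at 0.0673%, against 0.0223% to 0.0274% in the other FL UV libraries. Its mt-Rnr1 level was 346 CPM, against 81.6 to 125 CPM in the others. mt-Nd6 made 0.0474% of mitochondrial protein-coding counts in FL UV 2, against 0.135% to 0.149% in the others of its group. The same share was 0.0405% in FL NoUV 1, against 0.131% to 0.144% in the others of that group. In FL NoUV 1, mt-Nd6 itself had 41.4 CPM (94.9 to 102 in the others), mt-Nd2 had 10956 CPM (6076 to 6868) and mt-Nd5 had 24830 CPM (13253 to 14764). FL NoUV 1 was also the library with the fewest counts. mt-Nd4l had 3.20 CPM in FL NoUV 4, against 0.425 to 0.887 CPM in the others. The response of mt-Rnr1 to UV differed between the experiments, by -1.66 on the log2 scale in keratinocyte against whole-body skin (SE 0.42, adjusted p = 0.014, edgeR). No explanation of these values was tested.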

How the results depend on the processing

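Of 745 values recomputed under an alternative, 633 were close to the main value. A log2 fold change had to keep its direction and its side of the threshold, and a count to stay within 1.5 times. Shares and share ratios had only to move by less than their SD, so their sign was not checked. The share ratio of UV in FL skin was among those kept, although it went from 0.03 to -0.26 without FL UV 2. Among the log2 fold changes of single members 1 reversed, that of mt-Nd4l for UV in WT skin. It was -0.19 without WT UV 1 and reached 4.02 with another library left out. The number of members called moved as follows. For UV in KO skin it was 1 without KO NoUV 2 and KO UV 3, and 2 to 3 with single libraries left out. For UV in WT skin it was 2 with the muscle covariate, 2 in a fit of the compared groups only, and 2 to 6 with single libraries left out. For UV averaged over whole-body skin it was 3 to 8 with single libraries left out. For KO against WT without UV it was 1 with DESeq2, 1 with no filter, and 0 to 1 with single libraries left out. For KO against WT after UV it was 0 without KO NoUV 2 and KO UV 3. For KO against WT over both treatments it was 9 with DESeq2, 6 with no filter, 1 with the muscle covariate, 1 without KO NoUV 2 and KO UV 3, and 1 to 4 with single libraries left out. For UV in cKO skin it was 2 with DESeq2, 2 in a fit of the compared groups only, 1 without libraries under 10 M counts, and 0 to 2 with single libraries left out. For UV in FL skin it was 3 with the muscle covariate, 1 without libraries under 10 M counts, and 0 to 2 with single libraries left out. For UV averaged over keratinocyte skin it was 6 with DESeq2, 2 with upper-quartile scaling, 4 with no filter, 4 with the muscle covariate, 2 without libraries under 10 M counts, and 0 to 7 with single libraries left out. For the difference between experiments it was 3 with DESeq2, 4 with the muscle covariate, 2 without libraries under 10 M counts, 0 without KO NoUV 2 and KO UV 3, and 1 to 3 with single libraries left out. The cause was not tested. For the cKO against FL comparisons and both differences of UV responses the count stayed at 0 with any single library left out.

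With the replicate number as a block, the number of members called was 1 for KO against WT over both treatments, 1 for UV in cKO skin (3 in a blocked fit of the cKO libraries only, added after the data were seen), 5 for UV averaged over keratinocyte skin and 2 for the difference between experiments. mt-Nd2 then gave +0.84 for KO against WT (adjusted p = 0.054, edgeR). Outside KO UV with KO NoUV and cKO UV with cKO NoUV, the libraries share only a number. Over all groups, same-numbered libraries correlated above 0.1 in their deviations in 11 of 18 pairs of libraries in the whole-body and 13 of 24 in the keratinocyte experiment. A share over genes of protein-coding biotype was planned from the files, which name no biotype, so GENCODE M21 biotypes were used. The 6 low mRNAs and the tRNAs rest on few counts, with 2 to 1084 counts for a low mRNA in a library. The part of depth in these low counts was not tested. Libraries under 10 M counts hold the fewest.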
